A study of Caenorhabditis elegans with 2 samples.

Results

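The regions described here are the 779 regions on the X chromosome of Caenorhabditis elegans in a list of candidate binding sites of tagged NHR-237, called so that background is let through, with a summit more than 1000 bp from the 5′ end of every protein-coding gene. They were chosen by position alone from the 6542 regions that were called on both libraries together, of which 1179 lay on X. Binding was mapped by chromatin immunoprecipitation and sequencing (ChIP-seq) in whole L2 larvae of strain OP228, of mixed sex, with the genotype unc-119(ed3) III; wgIs228, where wgIs228 is an integrated transgene carrying eGFP-tagged nhr-237. All larvae carried both the unc-119 mutation and the transgene, 2 biological replicates made up the only group, and no comparison between conditions could be made. The strain is a single transgenic line, expression of the transgene by tissue was not measured here, and whole larvae average over all cell types. Coordinates are in ce11 (WBcel235), the genome sequence is that of RefSeq, and gene starts come from Ensembl release 115.

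Nuclear hormone receptors are transcription factors with a DNA-binding domain of zinc fingers, often controlled by small lipophilic ligands, and the family is unusually large in nematodes. The X chromosome of this organism is also the target of dosage compensation: in hermaphrodites, which carry a pair of X chromosomes, a condensin-related complex is recruited to X and lowers the expression of its genes. Recruitment takes place at scattered sites that share a short motif with the core GCGCAGGG, and the complex then spreads along the chromosome. No binding of that complex was measured here, and no published list of its recruitment sites was used.

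Some of the highest members, though not most, carried that core whole and close to their summits. It was searched on both strands within 100 bp of each summit, and was found whole in 11 of the 25 members with the highest signal (44.0%, exact binomial 95% interval 24.4 to 65.1). The same letters were in 0.0851% of windows of the same length tiled over all of X, and in 0.0553% of those tiled over the autosomes. The stretches below, each 40 bases long, 5′ to 3′ on the strand that holds the core, are from all 11 of these members, with the whole core closest to the summit in each, and are shown so that the core and its flanks can be compared; capitals mark the core, and the number is the rank of the member by pooled signal.
Member 1, chrX:11094210-11094249, minus strand: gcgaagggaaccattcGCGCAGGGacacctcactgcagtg
Member 4, chrX:6296532-6296571, plus strand: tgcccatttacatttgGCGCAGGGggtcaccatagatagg
Member 5, chrX:4209250-4209289, minus strand: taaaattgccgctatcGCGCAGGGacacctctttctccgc
Member 7, chrX:2997107-2997146, minus strand: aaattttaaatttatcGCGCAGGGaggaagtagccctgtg
Member 8, chrX:8036419-8036458, plus strand: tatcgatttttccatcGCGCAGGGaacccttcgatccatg
Member 12, chrX:16682156-16682195, minus strand: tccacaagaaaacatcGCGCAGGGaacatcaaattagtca
Member 13, chrX:806658-806697, plus strand: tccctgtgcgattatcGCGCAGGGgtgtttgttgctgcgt
Member 14, chrX:5429574-5429613, plus strand: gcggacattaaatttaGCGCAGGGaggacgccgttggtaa
Member 16, chrX:2364883-2364922, minus strand: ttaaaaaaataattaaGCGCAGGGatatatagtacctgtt
Member 17, chrX:13514542-13514581, plus strand: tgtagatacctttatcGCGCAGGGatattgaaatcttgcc
Member 23, chrX:17181349-17181388, minus strand: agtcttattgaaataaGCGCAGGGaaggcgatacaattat

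Some letters beside the core were also shared, but not by all members. Over the 17 whole cores in the windows of all members, the base just before the core was C in 11, the base before that was T in 12, and the base just after the core was A in 14. These counts describe the members in hand, and how far neighbouring letters follow each other elsewhere on X was not examined.

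A second set of high members held the core with 1 changed letter. With positions counted from 1 at the 5′ end of the core, 4 of the 25 highest members had as their closest match the change C4A, and 1 each had G1A, G1C, G3A and G8A. The members with C4A follow, with the changed core in capitals.
Member 2, chrX:9465867-9465906, plus strand: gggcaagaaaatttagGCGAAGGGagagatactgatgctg
Member 3, chrX:13700888-13700927, minus strand: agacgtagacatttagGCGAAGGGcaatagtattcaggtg
Member 11, chrX:1627090-1627129, plus strand: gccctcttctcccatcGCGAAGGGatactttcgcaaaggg
Member 18, chrX:7181747-7181786, plus strand: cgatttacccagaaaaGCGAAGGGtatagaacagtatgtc

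Several windows held more than 1 copy. Members 4, 8 and 13 each had 2 whole cores, and member 1 had 1 whole core among 3 matches with at most 1 mismatch. The full windows of members 1 and 4 are shown on the plus strand because they hold 1 and 2 whole cores in their setting. The core lies 3.5 bp from the summit in member 1, and the nearer core of member 4 lies 6.5 bp from it. In member 1 the capitals read the core on the opposite strand. The window of member 1 also opens with the letters of that core as read here, except the first, which would fall outside it. Only cores wholly inside a window are counted as whole.
Member 1, chrX:11094126-11094326, plus strand: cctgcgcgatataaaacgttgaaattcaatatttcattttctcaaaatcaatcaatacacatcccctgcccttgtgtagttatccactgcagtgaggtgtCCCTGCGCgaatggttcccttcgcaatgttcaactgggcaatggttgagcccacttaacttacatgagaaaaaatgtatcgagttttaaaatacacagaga
Member 4, chrX:6296458-6296658, plus strand: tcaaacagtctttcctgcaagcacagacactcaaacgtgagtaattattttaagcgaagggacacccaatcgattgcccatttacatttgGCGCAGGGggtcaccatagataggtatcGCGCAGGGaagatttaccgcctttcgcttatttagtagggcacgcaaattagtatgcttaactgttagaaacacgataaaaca

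Most members are not shown to be enriched on their own. The −log10 q-value that the authors deposited for each region had a median of 0.0629 over all members (upper quartile 0.193). It ran from 1.99 to 2.81 in the members that the authors kept in a shorter list (described below). In the others it was at most 1.74. Each region carries 1 pooled signal value from the authors, so single regions are given without an SD. The signal is taken here as enrichment over a control, on a scale that belongs to its list. Read depth is unknown, since no read counts were analysed here. Whether the same regions are enriched in larvae without the tag was not tested. Intervals on shares cover counting error in regions only.

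Of the 1179 regions on X, 66.1% were members (interval 63.3 to 68.8), compared with 55.9% of the 5363 autosomal regions that were away from starts by the same rule (54.6 to 57.3). These shares differed more among the 350 regions that the authors kept after the irreproducible discovery rate (IDR), which compares ranks between replicates. There, 47 of the 74 regions on X were members (63.5%, 51.5 to 74.4), and 70 of the 276 autosomal regions were away from starts (25.4%, 20.3 to 30.9). The 47 IDR members were 6.03% of all members (4.47 to 7.94), close to the 5.35% of all pooled regions that entered the IDR list. Pooled signal was at least 41.93 in every IDR region and at most 41.91 in every other, so the list held the 350 highest signals. Each contrast of IDR members with other members below is therefore also one of high with low pooled signal. The rule on distance gave no natural break: the members just past it lay 1001, 1006 and 1008 bp from tbc-12, fbxb-58 and aex-3, with signals of 24.5, 258 and 20.5. Just inside, and so not members, were regions at 993, 986 and 983 bp from hlh-8, snx-17 and M03B6.4, with signals of 21.4, 23.5 and 27.5.

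Signal was concentrated in a few members. The highest, at chrX:11094026-11094367, had a pooled signal of 507 and was followed by members at 385, 382, 369 and 352. The tenth stood at 267 and the thirteenth at 248, and the values then dropped to 196, 155, 127 and 110 over the next 4 members. Member 18 had 97.3, member 25 had 65.5, member 47, the last in the IDR list, had 42.3, and member 100 had 30.4. The median of all members was 21.9 (quartiles 20.1 and 25.3) and the lowest value was 18.8. The first member was thus 1.90-fold above the tenth, 7.73-fold above the 25th and 27-fold above the last.

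Most members had signals like those of other regions, and the groups were farthest apart at the top. The median of 21.9 was that of all pooled regions. It compared with 21.7 for regions on X at starts, 21.5 for autosomal regions away from starts and 22.6 for autosomal regions at starts. At rank 10, regions on X at starts had 71.1 and autosomal regions away from starts 89.1, against 267 for members. At rank 25 these groups had 44.7 and 61.5, and members had 65.5. A signal over 100 was reached by 17 members (2.18%), compared with 0.764% of all pooled regions, 3 of 400 on X at starts, 7 of 3000 on autosomes away from starts and 23 of 2363 on autosomes at starts. The last group had 136 at rank 10, below the members, but 99.7 at rank 25, above them. The groups differ in size, so equal ranks are not equal shares of each. The line at 100, and the ranks used below to split members, were drawn with these values in view, and no test was made of the differences.

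**Figure D1:**
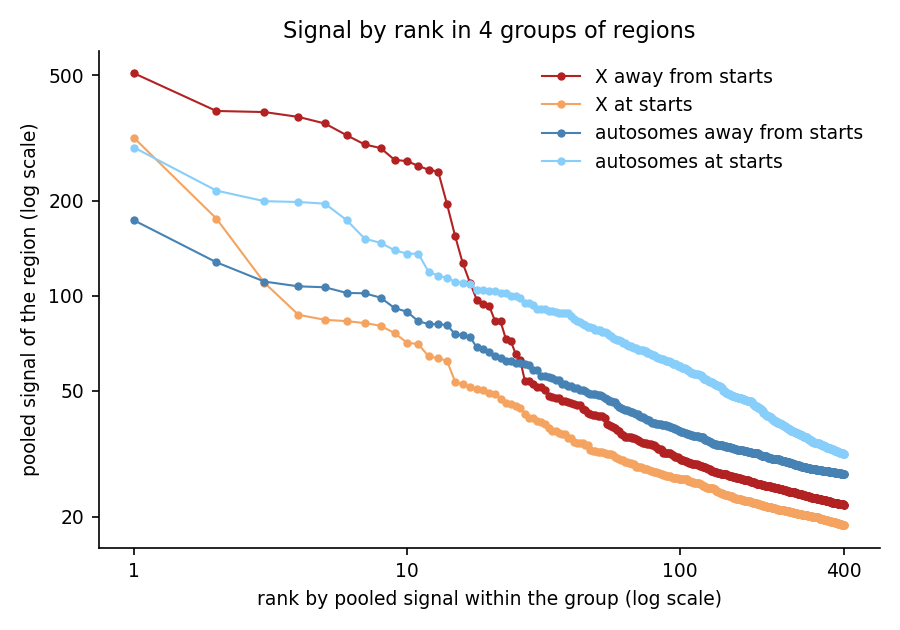
Pooled signal (y, log scale) against rank within the group (x, log scale) for up to 400 regions in each of 4 groups, 1 point per region. Members (X away from starts) start at 507 and stay at or above 248 to rank 13. They are above the autosomal regions at starts up to rank 17 and below them from rank 18 on, with 65.5 against 99.7 at rank 25. These groups hold 779 and 2363 regions, so equal ranks are not equal shares of each.

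The motif core followed the same falloff. It was present in 8 of the 15 highest members (53.3%, 26.6 to 78.7), in 3 of the 10 members ranked 16 to 25, and in none of the 22 ranked 26 to 47, for which the exact upper limit is 15.4%. It was in 1 of 153 members ranked 48 to 200 and in 2 of the remaining 579 (0.345%). With 1 mismatch allowed, the counts were 13 of 15 (86.7%, 59.5 to 98.3), 6 of 10, 5 of 22, 13 of 153 (8.50%) and 25 of 579 (4.32%), where 2.60% of windows over X held such a match. Members 9 and 15, with signals of 270 and 155, were the only 2 of the 15 highest without a match at either level.

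**Figure D2:**
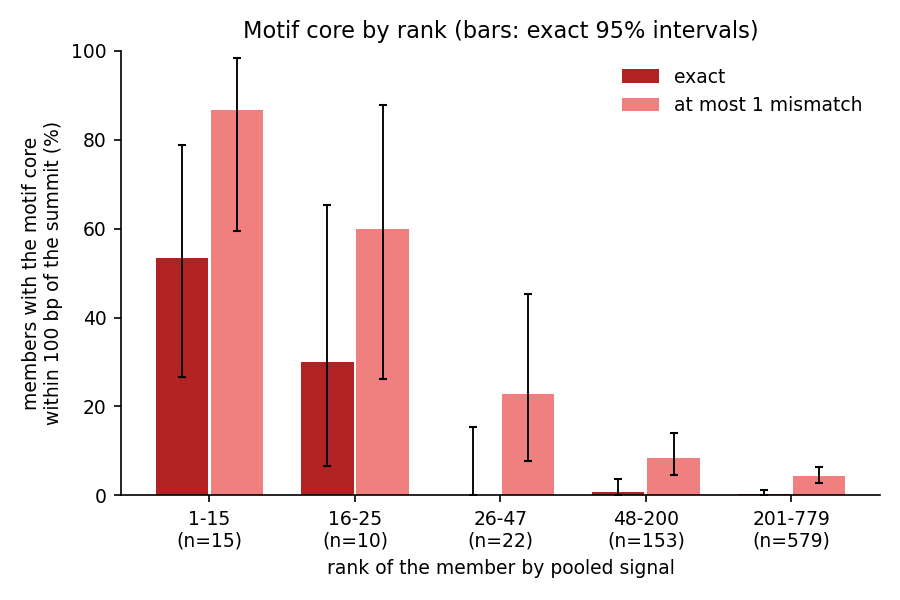
Percent of members (y) with the core of the recruitment motif within 100 bp of the summit, by rank of pooled signal (x, 5 bins), whole (dark) or with at most 1 mismatch (light); error bars are exact binomial 95% intervals. Whole cores are in 53.3% of the 15 highest members and in none of the 22 members ranked 26 to 47.

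Whole cores were rare elsewhere in the data. In all, 14 members held one (1.80%, 0.986 to 3.00), compared with 0.29% of all pooled regions. Of the 19 pooled regions with a core, 18 lay on X, and 11 of the 14 members with one were in the IDR list. Among IDR regions the share was 23.4% for members (11 of 47, 12.3 to 38.0), 2 of 27 on X at starts, 1 of 70 on autosomes away from starts and none of 206 on autosomes at starts (upper limit 1.78%). With 1 mismatch allowed, 51.1% of IDR members held the core, against 11.4% of autosomal IDR regions away from starts. Most copies of the core on X were not at members: 18 of its 81 copies (22.2%) had their centre within 100 bp of the summit of a member, and 15 within that distance of an IDR member. A count by centre includes copies that the edge of a window cuts, unlike the counts of whole cores.

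In the 25 highest members the match lay near the summit. The 11 whole cores closest to a summit were 3.5 to 72.5 bp from it, with a median of 18.5 bp, and 7 of them were within 25 bp. A count of every 8-letter word in the same 25 windows, made with no motif set beforehand, was led by overlapping words of the same motif. CGCAGGGA was in 13 of the 25 windows and in 0.110% of windows over X, and GCGCAGGG, CGCGCAGG, TCGCGCAG and GCGAAGGG were in 11, 10, 10 and 10. These windows also chose the words, so the counts are a description.

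Other short motifs were counted in the same way. GAGAGAG was in 5 of 47 IDR members (10.6%, 3.55 to 23.1) and in 28 of 70 autosomal IDR regions away from starts (40.0%). It was in 2.50% of windows over X and 2.73% of those over the autosomes. CCGCCC was in 5 of 47 and 15 of 70, and in 2.45% and 3.31% of these windows. TGATAA, a form of the site of GATA factors, was in 3 of 47 IDR members (6.38%) and in 16.9% of all members, compared with 19.1% of windows over X. The next 3 resemble half-sites of nuclear hormone receptors. AGGTCA was in 2 of 47 IDR members, where 5.30% of windows over X hold it. For AGTTCA the count was 4 of 47, and the share of windows was 14.6%. For AGTGCA it was 3 of 47, and 8.30%. Each was searched on both strands, and none of these motifs contains another. The binding site of NHR-237 itself was not given in the sources used here.

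The members spread over the whole length of X. In the 17 full stretches of 1 Mb there were 33 to 59 members each (median 44), and 1 to 6 IDR members (median 2). Neighbouring summits were a median of 13940 bp apart over all members and 288200 bp apart over IDR members (quartiles 66550 and 511100). The 17 members with a signal over 100 were farther apart, with a median gap of 855200 bp (quartiles 614900 and 1273000), a smallest gap of 186300 bp and a largest of 2355717 bp, between members 3 and 6. Fewer sites alone give wider gaps: if spread evenly, the 17 would lie 1042000 bp apart, IDR members 377000 bp and all members 22750 bp. Cut into 3 equal stretches from the left end, X held 7, 4 and 6 of the 17 highest, and 16, 14 and 17 IDR members.

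**Figure D3:**
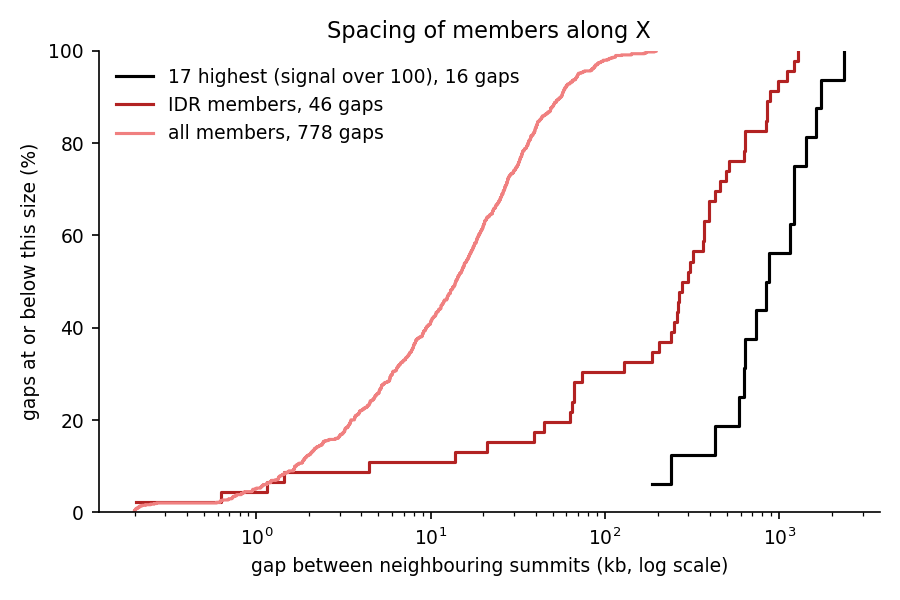
Cumulative percent of gaps (y) against the gap between neighbouring summits in kb (x, log scale) for all members, IDR members and the 17 members with a signal over 100. Gaps of the 17 highest start at 186300 bp, whereas 4 gaps between IDR members are under 2000 bp.

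Some strong members had another region close by. Another pooled region on X, weaker or stronger, had its summit within 2000 bp in 7 of the 17 highest members (41.2%, 18.4 to 67.1). Such a region was near 20 of the 47 IDR members (42.6%, 28.3 to 57.8) and 10 of 27 IDR regions on X at starts (37.0%, 19.4 to 57.6). Among members outside the IDR list the count was 193 of 732 (26.4%, 23.2 to 29.7). The closest pair of IDR members was members 4 and 28, with signals of 369 and 53.7 and summits 203 bp apart, both in introns of mom-1, which encodes a Porcupine-like protein needed for Wnt secretion.

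By annotation, the stronger members were more often between genes. Of all members, 331 summits were intergenic (42.5%, 39 to 46.1), 273 in introns (35.0%), 92 in coding exons (11.8%), 43 in 3′ UTRs (5.52%), 38 in exons of noncoding genes (4.88%) and 2 in 5′ UTRs. Among IDR members 31 of 47 were intergenic (66.0%, 50.7 to 79.1) and 12 intronic (25.5%), and among the 25 highest 20 were intergenic (80.0%, 59.3 to 93.2). Autosomal IDR regions away from starts were intergenic in 29 of 70 cases (41.4%), intronic in 32.9% and in noncoding exons in 15.7%. The closest protein-coding start was a median of 2790 bp away (quartiles 1662 and 4859), and 2972 bp for IDR members. The summit was upstream of that start in 44.5% of all members and in 19 of 47 IDR members (40.4%). A start of an alternative protein-coding transcript lay within 1000 bp of 71 members (9.11%), but of only 2 IDR members, member 22 at 289 bp in ZK1193.2 and member 32 at 83 bp in rme-4, a gene of endocytosis.

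**Figure D4:**
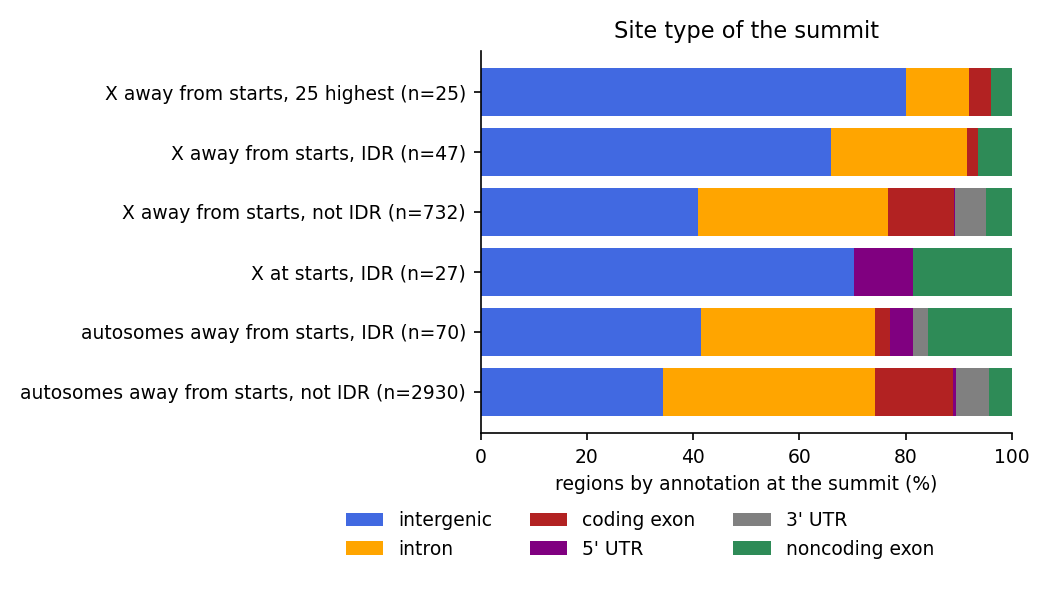
Percent of regions (x) by the annotation at the summit (colours) for 6 sets of regions (y), with the number in each. Intergenic summits make up 80.0% of the 25 highest members and 66.0% of IDR members, and coding exons and 3′ UTRs appear mainly in the sets outside the IDR list.

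Base composition moved with rank. The median GC content within 100 bp of the summit was 40.8% for the 15 highest members, 46.8% for those ranked 26 to 47 and 33.8% for those ranked below 200. Repeat-masked bases filled over 50% of the window in 148 members (19%) but in 1 of 47 IDR members. The corresponding share of autosomal regions away from starts was 31.7%. The part of composition in the motif counts was not tested.

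The neighbours of the highest members were varied in kind. Member 1 was intergenic, with W02H3.3 as the closest start at 3960 bp, and members 2, 3, 5 and 6 were intergenic near ZK899.6, K02D3.1, F20B6.9 and T27A8.7, at 2523, 6031, 1780 and 1048 bp. Member 4 lay in mom-1, 3384 bp from the start of cest-16, a carboxylesterase gene. Member 7 was in an intron of Y41G9A.17, at 2648 bp from its start. Members 9, 10 and 12 were closest to F19H6.5, F55G7.5 and F22H10.2, and member 11 to fbxb-58, an F-box gene, at 1006 bp. Member 13 was 3911 bp from gtr-1. Member 14 (signal 196) was the only one of the 25 in a coding exon, that of the polyketide synthase gene pks-1, and the closest start, of C41A3.2, was 15171 bp away.

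Lower in the 25, members 15, 16, 18 and 19 were closest to F56C3.1, T24D8.6, F43E12.1 and ZC53.1, all intergenic. Member 17 lay 3483 bp upstream of the collagen gene col-185. Member 20 was 4101 bp from hlh-29, which encodes a basic helix-loop-helix factor, and member 25 was 2972 bp upstream of sma-9, a Schnurri-like factor of TGF-beta signalling. Member 23 was 2885 bp from B0302.2. Member 22 lay in an intron of ZK1193.2, 5335 bp from the start of R04A9.1, and member 24 in an exon of the noncoding gene M02F4.12, 1780 bp from the start of M02F4.2. Members 21, 41 and 45, with signals of 83.3, 45.6 and 43.6, lay beside or within a single noncoding gene, C30E1.9, and had C30E1.4 as the closest protein-coding start. The last 2 were chosen after their values were seen.

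Genes of sex determination and dosage compensation on X were considered one by one. Member 8 (signal 294), with 2 whole cores, lay 4869 bp upstream of xol-1, the master switch that sets male fate, and was the closest IDR member to any gene of this list. For sex-1, a nuclear hormone receptor that represses xol-1, the closest member was 8485 bp from the start with a signal of 26.1. For ceh-39, a homeodomain factor with the same role, it was 2665 bp away with 32.8. For fox-1, which encodes an RNA-binding protein that lowers xol-1 expression, it lay inside the gene with 19.9. For sdc-1 and sdc-2, whose products act in sex determination and in recruiting the compensation complex to X, the closest members were 14646 and 24268 bp away with signals of 20.8 and 26.3. The closest IDR members to these 5 genes were 32407 to 414844 bp from the start.

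Among gene families, starts within 5000 bp of a member were counted. Such a member was found for 762 of the 2731 protein-coding genes on X (27.9%), and for 14 of 23 nuclear hormone receptor genes with an nhr name, 10 of 33 collagen genes, 11 of 52 ion channel genes, 4 of 19 homeobox genes, 6 of 37 neuropeptide and insulin genes and 5 of 33 chemoreceptor genes. Neighbouring genes of a family can share a member. With IDR members alone the share was 2.12% of all genes on X, and the genes in these families and in the list above were nhr-14 and nhr-17 among those receptors, col-185, xol-1, the channel genes lgc-40 and lgc-21, and srg-64. Receptor genes with other names, such as daf-12 and sex-1, were not in the count of 23. Member 26 (signal 62.5) was in an intron of daf-12, the steroid receptor that controls dauer formation, 1664 bp from its start. It was chosen after its values were seen.

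Transfer RNA genes were a second recurrent neighbour. A tRNA gene lay within 250 bp of 41 members (5.26%, 3.80 to 7.07), compared with 1.36% of all pooled regions, and of 8 of 47 IDR members (17%, 7.65 to 30.8). Regions on X at starts shared this: of the 89 pooled regions beside a tRNA gene, 54 lay on X, the 41 members among them. Of all 350 IDR regions 12 were beside a tRNA gene, 10 of them on X and 8 of them members. X holds 276 of the 612 tRNA genes (45.1%) but 13.7% of protein-coding genes. Of 70 autosomal IDR regions away from starts, 1 was beside a tRNA gene. The 8 IDR members were beside genes for different amino acids: member 8 by C18A11.t2 (Arg), member 22 by R04A9.t1 (Gln), member 24 by M02F4.t1 and M02F4.t2 (Gly and Glu), member 29 by C33G3.t2 (Lys), member 30 by W02H3.t1 (Leu), member 35 by F46G11.t1 and F46G11.t2 (Pro), member 39 by F15G9.t1 and F15G9.t2 (Ala) and member 46 by F41D9.t3 (Asn). Members 29 to 46 in this list were chosen after their values were seen. Their signals ran from 294 in member 8 to 83.1, 71.9 and then 52.7 to 42.4 in the others. Of these 8 members, member 8 also had a whole core.

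Both replicates ranked the highest members near the top of their lists. Member 1 ranked first in both lists, with signals of 334 in replicate 1 and 171 in replicate 2. Member 2 ranked 6 and 2, with 219 and 166, and member 3 ranked 2 and 3, with 241 and 141. Member 4 ranked 5 and 4, with 231 and 135. Signals in replicate 1 exceeded those in replicate 2 in each, with a median ratio of 1.96 over the 45 IDR members found in both lists, but each list has its own scale. Member 8 ranked 10 and 8, with 196 and 106, and member 13 ranked 13 in both, with 170 and 78.4.

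All of the 25 highest members were among the 350 highest regions of each replicate list. The 17 highest ranked 1 to 32 in replicate 1 and 1 to 101 in replicate 2, with a median of 10 in each. Spearman's rho of the signals over these 17 was 0.907, and over the 45 IDR members found in both lists it was 0.759. Without the 17 highest it was 0.0651 over 28 members. The points share 2 libraries that also made the pooled signal that ranked them, so these values describe the lists and do not measure reproducibility.

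Below the top, members were often high in 1 replicate. Member 26 ranked 104 in replicate 1, with 48.6, and 880 in replicate 2, with 14.9. Member 40, closest to nhr-14 at 1476 bp, ranked 166 and 29873, with 40.4 and 5.03. The opposite order was seen in members 41 and 42, which ranked 3497 and 2542 in replicate 1 and 100 and 59 in replicate 2. Member 37, in an intron of the kinase gene pdk-1, had no summit within 150 bp in replicate 1, and member 43 had none in replicate 2. These members were chosen after their values were seen.

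**Figure D5:**
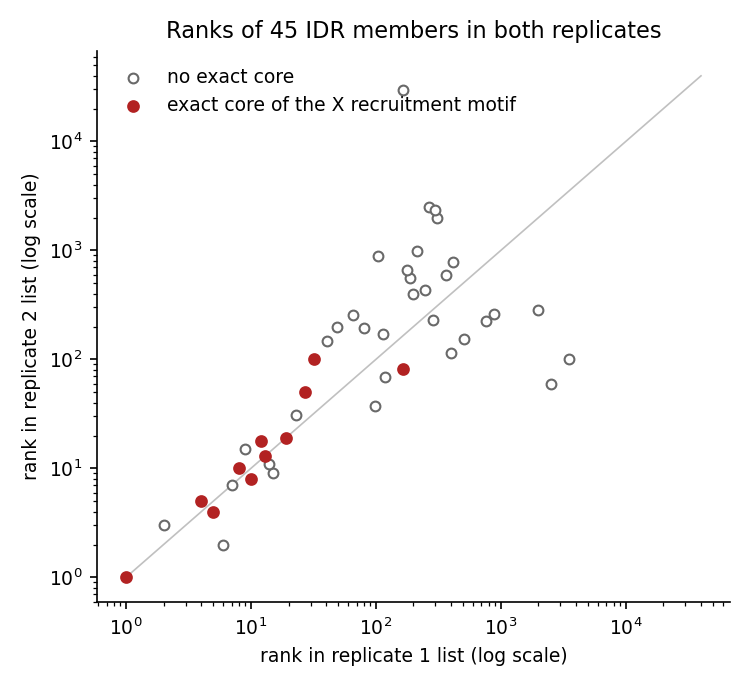
Rank in the replicate 2 list (y, log scale) against rank in the replicate 1 list (x, log scale) for the 45 IDR members with a summit within 150 bp in both; filled points hold a whole core and the line marks equal rank. The 11 filled points lie among the first 350 regions of both lists, and the spread widens below the 17 highest.

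Over all members, 409 had a summit within 150 bp in both replicate lists (52.5%, 48.9 to 56.1), close to the 52.0% of all pooled regions. By rank the share was 15 of 15, 10 of 10, 20 of 22, 112 of 153 (73.2%) and 252 of 579 (43.5%), in the bins used for the motif. Within the 1000 highest regions of both lists were 15, 10, 13, 3 and 0 members of these bins. A member was found more often in replicate 1 (88.5%) than in replicate 2 (62.6%). The same order held for all pooled regions, of which 5672 of 6542 were found in replicate 1 and 4165 in replicate 2, so it was not particular to members.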

How the data were processed

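ChIP-seq of eGFP-tagged NHR-237 in L2 larvae was analysed from region lists in ce11: 1 list of 30000 regions for each of 2 replicates, a pooled list of 6542 and an IDR list of 350. The authors called regions against a control alignment and let background through, per the labels and the deposited file notes. The signal of each region (column 7) was used as the authors deposited it. It was taken here as enrichment over the control, on a scale particular to that list. Column 9 holds a −log10 q-value, likewise as the authors deposited it; 43 of the 47 IDR members shared its highest value, 2.81, so signal set the ranks. Not given in the sources used here are the aligner, peak caller, IDR threshold and kind of control. Depth is unknown. The pooled list comes from the same 2 libraries, so agreement with the replicates is partly built in.

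A member was a pooled region on X with a summit over 1000 bp from every protein-coding gene start (Ensembl release 115). Summits matched between lists within 150 bp, and motifs were sought within 100 bp of the summit. Shares have exact (Clopper-Pearson) 95% intervals, and no test was run, since the labels give 1 group. Named genes were the closest start, holding gene and noncoding genes within 250 bp of the 25 highest members, with 6 genes of sex determination and dosage compensation; others are said where they appear. The members, lists and motifs were chosen with earlier results of these data known. Other distances, windows, motif forms, gene starts, merged summits, IDR regions and single replicates were tried as alternatives. The procedures were tested on simulated data. Python 3.11.15, NumPy 2.4.6, pandas 2.3.3, SciPy 1.17.1 and matplotlib 3.10.9 were used.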

Additional observations from a re-analysis of the deposited data

How the results depend on the processing

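Alternatives were computed for 9 results, and 57 of the 70 values moved by less than the interval or spread of the main value. Members were 80.8% of regions on X at 500 bp, 43.9% at 2000 bp and 60.1% when every transcript start counted, in place of 66.1%. Intergenic members were 46.8% with transcript starts. With only IDR regions, the median signal was 71.9 in place of 21.9, intergenic members were 66.0% in place of 42.5%, and 95.7% in place of 52.5% were in both replicates. That last share was 33.8% with summits matched within 75 bp, 63.7% within 300 bp, and 24.4% to 29.7% when 1 replicate was left out and its list searched for the regions of the other. With 1 mismatch, the core was in 51.1% of IDR members in place of 23.4%, and in 76.0% of the 25 highest in place of 44.0%. That share of the 25 highest, added after seeing the data, was 40.0% to 44.0% with 1 replicate left out. The median signal without a replicate has another scale and was not compared. For the share, tRNA and gap of IDR members the restriction to IDR regions changes nothing or gives 100% by construction. The core shares of IDR members and of the 25 highest were also unchanged by construction under that restriction, yet count among the 57. No paired analysis was possible because there is 1 group.

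The files give 1 signal per region and no read counts, so single regions have no error of their own, and a signal cannot be set against that of another list. With 2 replicates, 47 IDR members and 25 highest members, the intervals on shares are wide.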
